A study of Mus musculus with 12 samples.

Results

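Here 9 genes of the DNA methylation cycle were followed from mouse embryonic stem cells (ESCs) to epiblast-like cells (EpiLCs). They were the maintenance factors Dnmt1 and Uhrf1, the de novo methyltransferases Dnmt3a and Dnmt3b with their cofactor Dnmt3l, the methylcytosine oxidases Tet1, Tet2 and Tet3, and the glycosylase Tdg. The genes were chosen by name, as the rows of the count table whose gene identifier, without its version suffix, maps to one of these symbols. All 9 were found among the 22462 genes of the table. All 9 also passed the filter on low counts (at least 3 CPM, counts scaled to library size, in at least 3 libraries), which kept 11750 genes for testing.

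Both cell types gave ribosome protected fragments (RPF), the stretches of mRNA that ribosomes shield from nuclease, and total RNA, with 3 libraries in each of the 4 groups. ESCs grew in serum with LIF and 2i, a pair of kinase inhibitors that hold them in the naive state, and EpiLCs were the cells about 56 hours past the withdrawal of both. No group carried a knockout. The study's methods list, for this differentiation, an ESC line with fluorescent reporters at microRNA loci, so the cell types may represent a single line. The study calls its replicates biological, while the labels only number them and do not name separate cultures, so p-values measure the spread between these libraries. Total counts were 6188838 to 14655015 in total RNA libraries and 2681439 to 11359352 in RPF libraries, lowest in EpiLC RPF replicate 2.

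The labels were checked on marker genes. In total RNA, 6 of 6 naive markers (such as Zfp42 and Esrrb) were called lower in EpiLCs and 5 of 5 EpiLC markers (such as Fgf5 and Otx2) were called higher. The summed level of 7 fibroblast markers was 1.97 to 2.31 CPM in ESC total RNA and 12.8 to 14.9 CPM in EpiLC total RNA, and it was 6.38 to 7.16 CPM in ESC RPF and 34.3 to 41.1 CPM in EpiLC RPF. Among them Postn had no count in any library and Lum had at most 3 counts in each. The part of such cells in the changes below was not tested. In bulk samples, fewer cells of a type and less RNA per cell cannot be told apart.

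DNA methylation in mammals sits mostly on the cytosine of CG dinucleotides (CpGs). DNMT3A and DNMT3B place new methyl groups, helped by the catalytically inactive DNMT3L, and DNMT1 copies the pattern to the new strand after replication, guided there by UHRF1, which binds half-methylated CpGs. TET enzymes oxidize methylcytosine in steps, and TDG cuts out the most oxidized forms so that base excision repair can restore plain cytosine. Naive ESCs in 2i are known for low genome-wide methylation, and the epiblast is known for regaining it around implantation.

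The authors counted only reads with a single mapping position, so copies of a coding sequence elsewhere in the genome remove reads from a gene's count. Each member's longest coding sequence was therefore broken into 28-base stretches, the length of a typical RPF, and searched in the annotated transcripts of all other genes. Dnmt1, Dnmt3l, Tet1, Tet2 and Tet3 shared none. Dnmt3a shared 1.96% of them, with the pseudogene Dnmt3a-ps1. Dnmt3b shared 28.2%, with its coding paralogue Dnmt3c, and Uhrf1 shared 49.0%, with the processed pseudogenes Gm5648 and Gm15953. Tdg shared 94.0%, mostly with the processed pseudogenes Gm9855, Gm5597 and Tdg-ps, which left 71 of 1191 stretches unique. At 50 bases, the full read length of the total RNA libraries, the shared part was 29.6% for Uhrf1, 19.5% for Dnmt3b and 89.1% for Tdg. RPF and total RNA reads of these genes thus differ in what can be counted, and levels per unique length are given with the order of the members.

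The coding stretch of Tdg that holds its longest run of unique 28-base stretches is shown to make clear how little sequence carries the gene's counts. It spans positions 133 to 207 of the coding sequence, counted from the start codon, and the capitals mark the 55 bases covered by 28 successive unique stretches. The next pair shows where a run of 287 bases identical between Dnmt3b and Dnmt3c ends, at positions 2424 to 2483 of the Dnmt3b coding sequence. Capitals there mark the 4 bases at which they differ. All were read from Gencode M21 transcripts.
Tdg: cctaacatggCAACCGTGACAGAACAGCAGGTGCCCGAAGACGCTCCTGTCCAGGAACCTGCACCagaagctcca
Dnmt3b: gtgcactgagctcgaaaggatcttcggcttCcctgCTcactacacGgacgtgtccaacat
Dnmt3c: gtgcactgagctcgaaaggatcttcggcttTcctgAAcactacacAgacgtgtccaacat

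Promoters of the genes with the largest rise and the largest fall are shown, and both are rich in CpG, as were most windows of the members. RefSeq promoter windows (GRCm38.p6, 250 bases before to 50 after each start) matched 9 of 9 members, with 16 windows, of which 12 held more CpGs than the median window. The Dnmt3b window held 30 CpGs and the Tet2 window 57, against a median of 7 over 32851 windows, and fewer CpGs were found in 88.3% and 99.8% of windows, respectively. Some windows of Dnmt3a (46 and 47), Dnmt1 (33) and Uhrf1 (33) held more than that of Dnmt3b. Their other windows held fewer, with 18 for Dnmt3a, 12 and 2 for Dnmt1 and 12 for Uhrf1. The 3 Dnmt3l windows held 6, 4 and 3 CpGs. Below, 200 bases before and 20 after the start are given, with every CG in capitals, 23 for Dnmt3b (chr2:153649249-153649468, plus strand) and 43 for Tet2 (chr3:133544371-133544590, minus strand). The letters CG occur in 94.6% of all windows, and no methylation was measured in these libraries.
Dnmt3b: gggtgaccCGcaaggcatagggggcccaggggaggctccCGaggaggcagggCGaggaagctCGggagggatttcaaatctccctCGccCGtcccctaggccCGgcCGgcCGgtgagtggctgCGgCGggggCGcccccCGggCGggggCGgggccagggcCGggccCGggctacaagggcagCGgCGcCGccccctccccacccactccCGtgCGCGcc
Tet2: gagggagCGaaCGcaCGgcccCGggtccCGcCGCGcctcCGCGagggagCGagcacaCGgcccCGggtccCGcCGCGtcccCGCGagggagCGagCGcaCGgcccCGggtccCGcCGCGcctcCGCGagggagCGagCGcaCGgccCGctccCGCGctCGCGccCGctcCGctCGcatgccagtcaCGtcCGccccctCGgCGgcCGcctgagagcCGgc

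In total RNA, Dnmt3a and Dnmt3b rose and Uhrf1 and Tet2 fell from ESC to EpiLC, while Dnmt1, Dnmt3l, Tet1, Tet3 and Tdg moved by less than the fold limit. A gene was called at a limma adjusted p below 0.05 with an absolute log2 change above 1. By this rule 4 of 9 members were called, against 24.3% of all genes tested, 2 of them higher (14.6% of all genes) and 2 lower (9.70%). Without the fold limit 9 of 9 passed at an adjusted p below 0.05, which 65.4% of all genes did. The libraries of ESC and EpiLC did not overlap for 9 of 9 members in total RNA (70.3% of all genes) and for 8 of 9 in RPF (63.1%). In RPF, 4 of 9 members were called (26.0% of all genes): Dnmt3a, Dnmt3b and Tet3 were higher (15.4%) and Tet2 was lower (10.6%). The median log2 change of the 9 members was -0.52 in total RNA and -0.31 in RPF, beside 0.03 and 0.01 over all genes. At an adjusted p below 0.05 alone, 8 of 9 members passed in RPF, which 59.8% of all genes did.

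**Figure D1:**
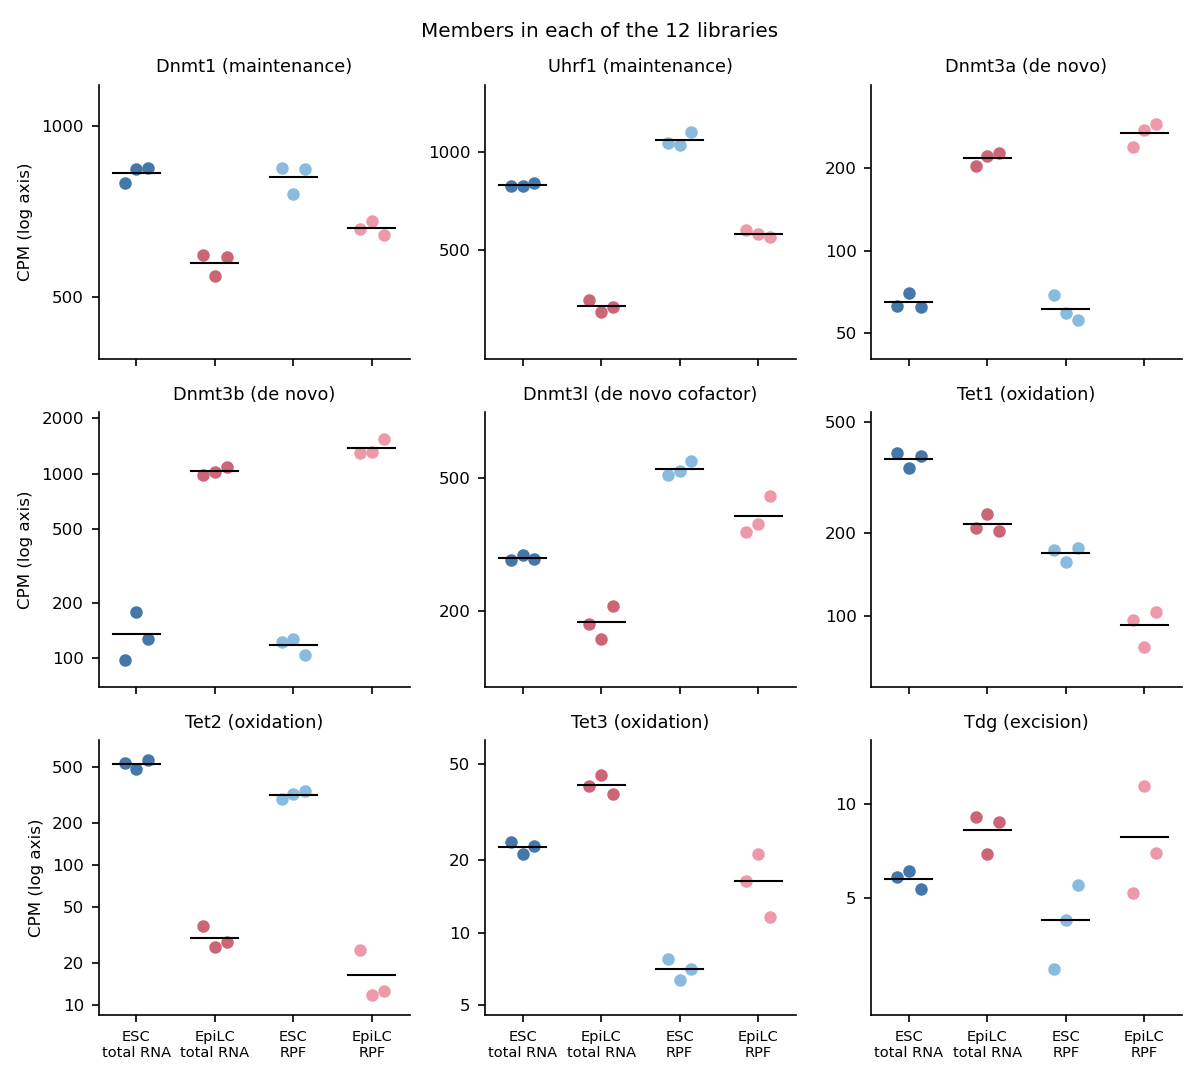
Level of each of the 9 members in the 12 libraries, in CPM on a log axis, with 1 point per library (replicates 1 to 3 from left to right) and a line at the mean of the 3 libraries. Dnmt3b lies between 97.8 and 179 CPM in ESC total RNA and between 982 and 1088 CPM in EpiLC total RNA, whereas Tet2 drops from 483 to 558 CPM to between 25.6 and 36.3 CPM.

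Among the de novo enzymes, Dnmt3b (counted coding sequence of 2538 bases within chr2:153661476-153686399, mm10, plus strand) had the largest rise of the members. It was at 97.8, 179 and 128 CPM in the 3 ESC total RNA libraries and at 982, 1023 and 1088 CPM in the EpiLC ones. In RPF it was at 122, 128 and 104 CPM in ESCs and at 1285, 1310.0 and 1532 CPM in EpiLCs. Every EpiLC library was above every ESC library of its assay, and the ESC total RNA libraries were the most uneven, with a coefficient of variation of 30.5%. Dnmt3b rose 7.90-fold in total RNA (log2 change 2.98 ± 0.11 SE, adjusted p = 5.21e-17) and 11.9-fold in RPF (3.57 ± 0.13, adjusted p = 4.05e-17). In ESC total RNA replicate 2, where Dnmt3b was highest, the summed EpiLC markers were also highest, at 21.3 CPM against 9.84 and 12.3 CPM in the other two, and their part in the value was not tested. In ESC RPF, Dnmt3b was highest in replicate 2 too, but the summed EpiLC markers were lowest there, at 14.3 CPM against 17.4 and 15.0 CPM.

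Dnmt3a (2682 bases within chr12:3835243-3907747, plus strand) encodes the other de novo methyltransferase, and its isoforms cannot be separated in a count per gene. It was at 62.7, 70.2 and 62.0 CPM in ESC total RNA and at 204, 221 and 227 CPM in EpiLC total RNA. The RPF values were 69.0, 59.1 and 56.0 CPM in ESCs and 239.7, 275 and 289 CPM in EpiLCs. No library of one cell type reached the range of the other. Dnmt3a rose 3.33-fold in total RNA (log2 change 1.74 ± 0.08 SE, adjusted p = 2.27e-15) and 4.38-fold in RPF (2.13 ± 0.10, adjusted p = 1.66e-15).

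Dnmt3l (1221 bases within chr10:78050128-78063349, plus strand), whose product stimulates DNMT3A and DNMT3B but methylates nothing itself, did not rise with them. It was at 284, 294 and 286 CPM in ESC total RNA and at 183, 165 and 207 CPM in EpiLC total RNA. In RPF it was at 512, 527 and 565 CPM in ESCs and at 345, 364 and 444 CPM in EpiLCs. The EpiLC libraries were the lower ones in both assays, without overlap. The log2 change was -0.64 ± 0.08 (SE) in total RNA (adjusted p = 1.17e-07) and -0.48 ± 0.08 in RPF (adjusted p = 1.18e-05), within the fold limit in each.

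The maintenance pair moved down together, but only Uhrf1 in total RNA passed the fold limit. Uhrf1 (2304 bases within chr17:56305143-56322502, plus strand) was at 786, 783 and 802 CPM in ESC total RNA and at 353, 324 and 335 CPM in EpiLC total RNA. In RPF it was at 1060.3, 1047 and 1145 CPM in ESCs and at 576, 561 and 548 CPM in EpiLCs. The groups were far apart in relation to their spread, with coefficients of variation of 1.25% to 4.92%. Uhrf1 fell 2.33-fold in total RNA (log2 change -1.22 ± 0.05 SE, adjusted p = 3.08e-16). In RPF it was 1.94-fold lower (-0.95 ± 0.05, adjusted p = 1.45e-13), just inside the fold limit, and it passed that limit at -1.02 after a correction for GC content.

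Dnmt1 (4818 bases within chr9:20907521-20952742, minus strand), the copying enzyme, was at 794, 838 and 844 CPM in ESC total RNA and at 592, 543 and 588 CPM in EpiLC total RNA. Its RPF values were 841, 758 and 838 CPM in ESCs and 657, 681 and 641 CPM in EpiLCs. It was lower in EpiLCs in every library, by a smaller step than Uhrf1. The log2 change was -0.52 ± 0.05 (SE) in total RNA (adjusted p = 2.56e-09) and -0.31 ± 0.06 in RPF (adjusted p = 4.74e-05).

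The 3 oxidases moved in different directions. Tet2 (5718 bases within chr3:133466737-133488626, minus strand) was at 533, 483 and 558 CPM in ESC total RNA and at 36.3, 25.6 and 27.8 CPM in EpiLC total RNA. In RPF it was at 295, 319.5 and 339 CPM in ESCs and at 24.7, 11.8 and 12.6 CPM in EpiLCs, the last 3 from 119, 31 and 67 counts. Tet2 fell 16.98-fold in total RNA (log2 change -4.09 ± 0.12 SE, adjusted p = 4.41e-19) and 19.7-fold in RPF (-4.30 ± 0.21, adjusted p = 9.08e-15), the largest change of any member in both assays. Replicate 1 was the highest EpiLC library for Tet2 in both assays. The summed naive markers were also highest there, at 94.1 CPM in total RNA (49.7 and 77.9 CPM in replicates 2 and 3) and at 183 CPM in RPF (93.9 and 81.1 CPM), and their part in the remaining Tet2 counts was not tested.

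Tet1 (6075 bases within chr10:62812532-62879969, minus strand) fell by less than Tet2, to 0.58 of its ESC level in total RNA and 0.56 in RPF. It was at 387, 342 and 377 CPM in ESC total RNA and at 208, 233 and 202 CPM in EpiLC total RNA. The RPF values were 173, 157 and 177 CPM in ESCs and 96.8, 78.0 and 104 CPM in EpiLCs. All EpiLC libraries were below all ESC libraries. The log2 change was -0.79 ± 0.07 (SE) in total RNA (adjusted p = 2.29e-10) and -0.84 ± 0.10 in RPF (adjusted p = 9.21e-08), within the fold limit in each.

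Tet3 (5367 bases within chr6:83368042-83455007, minus strand), the oxidase known best from the zygote, was the lowest member of the family in ESCs and was higher in EpiLCs. It was at 23.9, 21.2 and 22.9 CPM in ESC total RNA and at 40.8, 45.03 and 37.8 CPM in EpiLC total RNA. In RPF it was at 7.82, 6.38 and 7.06 CPM in ESCs and at 16.4, 21.3 and 11.6 CPM in EpiLCs, from 30 to 79 counts in a library. The ranges did not overlap in either assay. The log2 change was 0.85 ± 0.11 (SE) in total RNA (adjusted p = 2.97e-07), within the fold limit, and Tet3 rose 2.09-fold in RPF (1.07 ± 0.23, adjusted p = 0.000276). That RPF call was lost without EpiLC RPF replicate 1 (0.98) or replicate 2 (0.93) and after the GC correction (0.90), each time by the fold limit alone.

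Tdg (1221 bases within chr10:82638723-82648720, plus strand), which excises formylcytosine and carboxylcytosine, had the lowest counts of the 9 genes. It was at 5.83, 6.07 and 5.32 CPM in ESC total RNA and at 9.08, 6.89 and 8.71 CPM in EpiLC total RNA. In RPF, 20 to 60 counts in a library gave 2.95, 4.25 and 5.50 CPM in ESCs and 5.18, 11.4 and 6.94 CPM in EpiLCs, and the groups overlapped. The log2 change was 0.56 ± 0.21 (SE) in total RNA (adjusted p = 0.0210) and 0.70 ± 0.31 in RPF (adjusted p = 0.0567). Since nearly all of its coding sequence has a copy elsewhere, as shown above, these values rest on a small part of the gene. Without ESC RPF replicate 3 the RPF change was 1.02 and passed both limits (adjusted p = 0.0227).

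**Figure D2:**
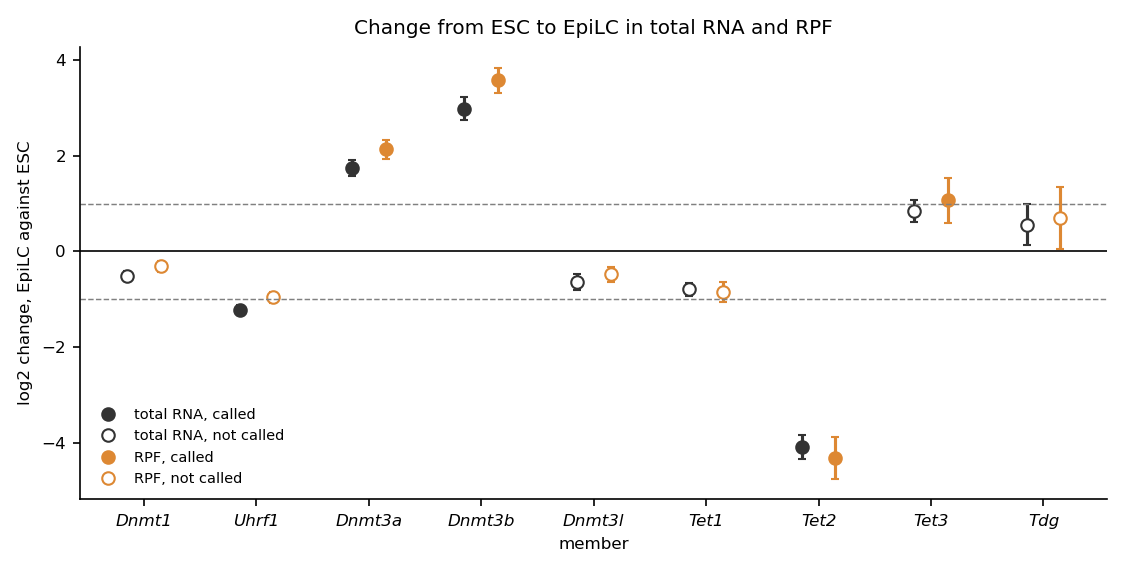
Log2 change from ESC to EpiLC of each member in total RNA (black) and RPF (orange), with 95% confidence intervals from the limma fit; filled points were called, and dashed lines mark the fold limit of 1. Dnmt3a and Dnmt3b lie above the upper line in both assays and Tet2 far below the lower one, at -4.09 and -4.30.

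Translational efficiency (TE), or RPF level relative to mRNA level, was tested as the interaction of assay and cell type, to ask whether ribosome occupancy changed beyond mRNA level. For 0 of 9 members was a TE change called, against 0.255% of all genes, and 0 passed without the fold limit (1.20% of all genes). At an unadjusted p below 0.05, 4 of 9 members passed in limma, beside 1634 of all 11750 genes. The edgeR and DESeq2 tests also called 0 of 9. By adjusted p alone, without the fold limit, Uhrf1 passed in DESeq2 (0.29, adjusted p = 0.0347) and in limma with total counts as library sizes (0.29, adjusted p = 0.0445). The estimates were above 0 for 7 of 9 members (50.8% of all genes). The highest was that of Dnmt3b, at 0.59 (95% confidence interval 0.23 to 0.95, adjusted p = 0.0894). Dnmt3a was at 0.39 (0.13 to 0.65, adjusted p = 0.126), Uhrf1 at 0.27 (0.11 to 0.42, adjusted p = 0.0756) and Dnmt1 at 0.20 (0.05 to 0.36, adjusted p = 0.206). These 4 intervals lie above 0 before adjustment over all genes.

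The TE estimate of Dnmt3b depended on the uneven ESC total RNA libraries. It was 0.81 without replicate 1 of that group (adjusted p = 0.00476) and 0.36 without replicate 2, and over all alternatives its adjusted p ranged from 0.00476 to 0.256. That of Uhrf1 ranged from 0.0218 to 0.163 and that of Dnmt3a from 0.0480 to 0.292. The other members had TE changes of -0.22 to 0.22 on the log2 scale, with intervals of -0.07 to 0.39 for Dnmt3l, -0.30 to 0.20 for Tet1, -0.72 to 0.29 for Tet2, -0.30 to 0.74 for Tet3 and -0.63 to 0.92 for Tdg. The intervals were widest for Tet3 and Tdg, with few RPF counts, and for Tet2, with few in EpiLCs. Changes of any size within these intervals remain possible.

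TE levels within a cell type set the oxidases apart from Dnmt3l and Uhrf1 (given as the log2 ratio of RPF to total RNA on the TMM scale, where the median gene was at -0.02 in ESCs and -0.01 in EpiLCs). Tet1 was at -1.12 ± 0.07 (SE, adjusted p = 1.16e-12) in ESCs and -1.17 ± 0.10 (adjusted p = 1.32e-10) in EpiLCs. Tet3 was at -1.65 ± 0.19 (adjusted p = 2.69e-08) and -1.43 ± 0.17 (adjusted p = 6.37e-08). Only these 2 members were called lower than total RNA in ESCs (13.5% of all genes), and again in EpiLCs (14.4%). In ESCs 11.8% of all genes had a TE level below that of Tet1 and 4.75% below that of Tet3.

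Tet2 was at -0.72 ± 0.08 (SE) in ESCs (adjusted p = 9.80e-09) and -0.94 ± 0.23 in EpiLCs (adjusted p = 0.00104), not past the fold limit. It passed that limit in EpiLCs at -1.31 without EpiLC RPF replicate 1, at -1.02 without EpiLC total RNA replicate 2 and at -1.001 without replicate 3. Dnmt3l had the highest TE level of the members, at 0.90 ± 0.07 in ESCs (adjusted p = 5.31e-11) and 1.06 ± 0.08 in EpiLCs (adjusted p = 7.15e-11). It was the only member called higher in RPF than in total RNA, in EpiLCs (9.39% of all genes), and the call was lost by the fold limit without EpiLC RPF replicate 3 (0.95), without EpiLC total RNA replicate 2 (0.99) and after the GC correction (0.97). Uhrf1 was at 0.46 ± 0.05 and 0.73 ± 0.06, with the shorter RPF reads having fewer unique positions than total RNA reads in this gene. Dnmt1, Dnmt3a, Dnmt3b and Tdg lay between -0.42 and 0.42 in both cell types. Tdg had 71 unique stretches at 28 bases against 127 at 50 bases, and Dnmt3b had 1800 against 2000. The TE levels of Uhrf1, Dnmt3b and Tdg thus tend to be too low, and by how much was not tested.

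**Figure D3:**
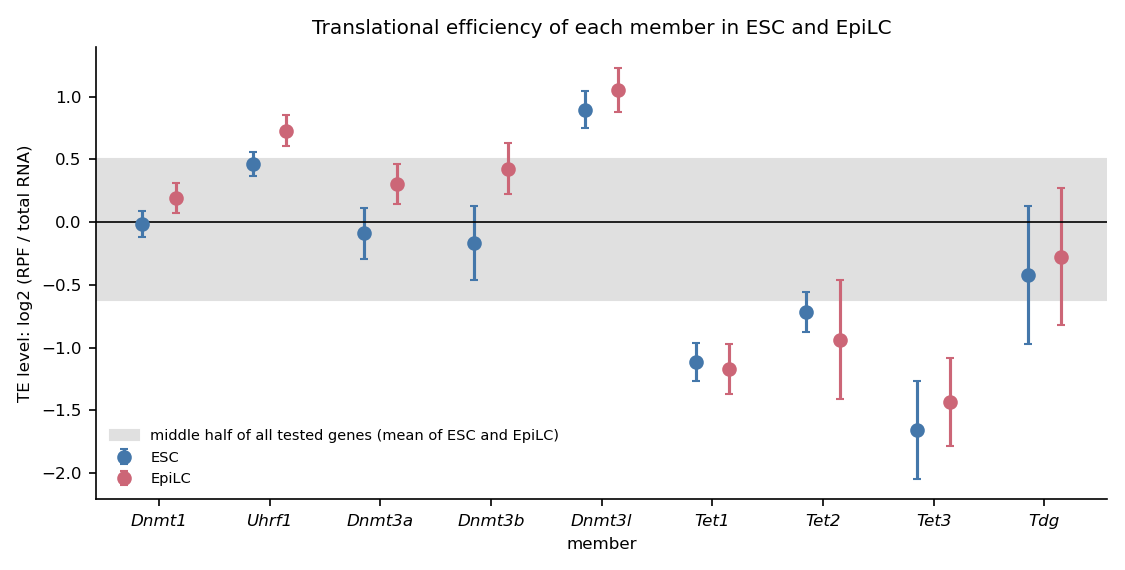
TE level of each member in ESC (blue) and EpiLC (red) as the log2 ratio of RPF to total RNA with 95% confidence intervals, and in grey the range between the quartiles of all tested genes, averaged over both cell types. Tet1 and Tet3 lie below -1 in both cell types and Dnmt3l lies at 0.90 and 1.06.

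To compare genes with each other, levels were divided by the counted length (CPM per kilobase). Per kilobase, Uhrf1 led in ESC total RNA at 343 ± 4.27 (SD, n = 3), followed by Dnmt3l at 236 ± 4.14 and Dnmt1 at 171 ± 5.68. Tet2 came next at 91.7 ± 6.64, and Tet1 (60.7 ± 3.86) and Dnmt3b (53.1 ± 16.2) overlapped. Dnmt3a was at 24.2 ± 1.70, and Tdg (4.70 ± 0.316) and Tet3 (4.23 ± 0.251) overlapped at the bottom. In EpiLC total RNA the order was led by Dnmt3b at 406 ± 21.1, above 98.6% of all tested genes. Dnmt3l (151 ± 17.2) and Uhrf1 (146 ± 6.34) overlapped, Dnmt1 was at 119 ± 5.58, Dnmt3a at 81.1 ± 4.35 and Tet1 at 35.3 ± 2.71. Tet3 (7.68 ± 0.675), Tdg (6.74 ± 0.960) and Tet2 (5.23 ± 0.980) closed the order, each overlapping its neighbour.

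The RPF order was alike at the top. In ESC RPF, Uhrf1 (471 ± 23.1 CPM per kilobase) and Dnmt3l (438 ± 22.2) overlapped at the head, above Dnmt1 (169 ± 9.73), Tet2 (55.6 ± 3.78) and Dnmt3b (46.5 ± 4.92). In EpiLC RPF, Dnmt3b was at 542 ± 53.6, Dnmt3l at 315 ± 42.9, Uhrf1 at 244 ± 6.15 and Dnmt1 at 137 ± 4.19, with no overlap between neighbours. Tet3 (3.06 ± 0.900) and Tet2 (2.86 ± 1.26) overlapped at the end. When counts were divided instead by the length made of unique 28-base stretches, an alternative chosen after seeing the data, Tdg moved from the 8th to the 5th place in total RNA of both cell types, at 78.8 in ESCs and 113 in EpiLCs. In RPF, Tdg likewise moved from the 8th to the 5th place in ESCs, at 58.2, and from the 7th to the 5th in EpiLCs, at 108. Uhrf1 went to 673 in ESC total RNA, 287 in EpiLC total RNA, 923 in ESC RPF and 478 in EpiLC RPF, which put it 2nd, above Dnmt3l, in both assays of EpiLCs. Dnmt3b went to 64.8 in ESC RPF, above Tet2. The 28-base length is that of an RPF, while total RNA reads reach 50 bases, at which more stretches are unique. Tdg had 127 unique stretches at 50 bases against 71 at 28 bases, and Uhrf1 had 1586 against 1159. Total RNA levels of these genes per unique 28-base length thus tend to be too high. The 5th place of Tdg in total RNA rests on that length, and the order at 50 bases was not tested. Levels of Uhrf1, Dnmt3b and Tdg therefore depend on the length used. The same holds for every share and ratio below that includes Uhrf1 or Dnmt3b, all given per counted length.

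The make-up of the methyltransferase family turned over between the cell types. Of the summed Dnmt1, Dnmt3a and Dnmt3b per kilobase, Dnmt1 held 69.1% ± 4.37 (SD, n = 3) in ESC total RNA and 19.7% ± 1.13 in EpiLC total RNA. Dnmt3b held 21.1% ± 4.60 in ESCs and 67.0% ± 0.813 in EpiLCs, and Dnmt3a 9.76% ± 0.515 and 13.4% ± 0.384. In RPF, Dnmt3b held 19.6% ± 2.27 and 69.5% ± 1.82. The ratio of Dnmt3b to Dnmt3a was 2.17 ± 0.524 in ESC total RNA and 5.01 ± 0.103 in EpiLC total RNA, without overlap of the libraries, and 2.04 ± 0.215 and 5.43 ± 0.351 in RPF. An exact two-sided permutation test of the log2 ratios gave p = 0.1, the smallest that 3 libraries against 3 can give. Dnmt3l stood at 3.14 ± 0.640 per unit of summed Dnmt3a and Dnmt3b in ESC total RNA and at 0.311 ± 0.0283 in EpiLC total RNA, and in RPF at 6.37 ± 0.970 and 0.489 ± 0.0193.

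The TET family turned over as well. Tet2 was the leading member in ESCs, with 58.6% ± 0.914 of the summed level per kilobase in total RNA and 65.6% ± 2.09 in RPF. In EpiLCs Tet1 led, with 73.2% ± 1.95 in total RNA and 72.0% ± 6.60 in RPF, up from 38.7% ± 0.831 and 32.8% ± 1.91 in ESCs. The share of Tet3 went from 2.70% ± 0.0843 to 15.9% ± 0.406 in total RNA. The ratio of Tet2 to Tet1 went from 1.51 ± 0.0564 to 0.149 ± 0.0343 in total RNA and from 2.01 ± 0.178 to 0.187 ± 0.0745 in RPF. No library of ESCs overlapped one of EpiLCs in any of these shares and ratios (exact permutation p = 0.1 in each of 22 tests, which no adjustment over them can lower).

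**Figure D4:**
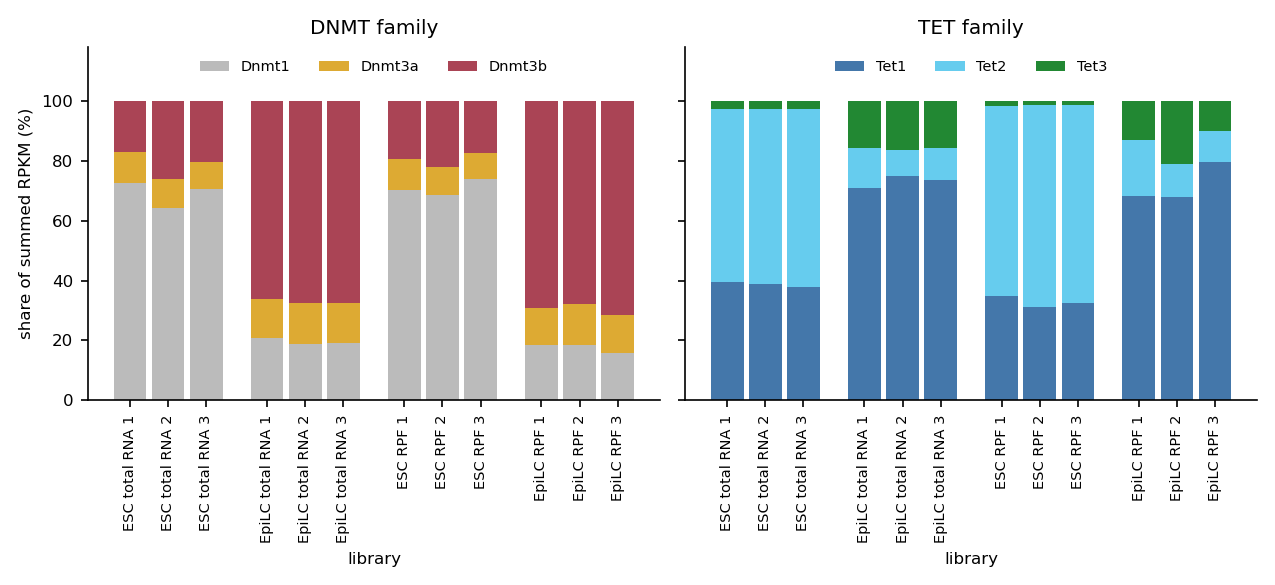
Share in percent of each methyltransferase (left) and each TET oxidase (right) in the family's summed level per kilobase, as 1 stacked bar per library. Dnmt1 fills 64.2% to 72.7% of the bars of ESC total RNA and 18.8% to 20.96% of those of EpiLC total RNA, and Tet2 gives way to Tet1 in the right panel.

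De novo enzymes against oxidases gave the widest shift among these ratios. The summed Dnmt3a and Dnmt3b per kilobase were 0.5001 ± 0.149 (SD, n = 3) times the summed TETs in ESC total RNA and 10.1 ± 1.05 times in EpiLC total RNA. In RPF the ratio went from 0.824 ± 0.117 to 30.5 ± 4.30. The ratio of Uhrf1 to Dnmt1 went the other way, from 2.00 ± 0.0607 to 1.23 ± 0.0333 in total RNA and from 2.79 ± 0.137 to 1.78 ± 0.0553 in RPF.

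For each member the 3 tested genes with the most similar profile over the 12 libraries were found, by the root mean square difference of log2 CPM centred on each gene's mean. Nearest to Dnmt3b was Pxdn (0.147), followed by Soat1 (0.172) and Stk26 (0.197), and nearest to Dnmt3a was Micu2 (0.127), before Pphln1 (0.155) and Acsl4 (0.160). Tet2 had the most distant neighbours, with Mras at 0.372, Mitf at 0.383 and Myof at 0.388. Dnmt1 had the closest, Top3b at 0.0656, Clstn1 at 0.0709 and Rpe at 0.0779. That order depended on the measure, as the Pearson correlation was 0.987 between Tet2 and Mras and 0.962 between Dnmt1 and Top3b. Uhrf1 lay nearest to Aars (0.0750), Ehd1 and Ptpn6, and Dnmt3l to Ctsb (0.112), Actl6a and Cd3eap. Tet1 lay nearest to Wsb1 (0.103), Gtf2h1 and Chd2, Tet3 to Mex3c (0.176) and Lysmd3, and Tdg to Ccdc120 (0.229), Lrp4 and Btbd3. No member was among the 3 nearest genes of another member.

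Of 13 listed partners and regulators of the enzymes, 11 were tested, with 0 called higher and 2 called lower in total RNA (14.6% and 9.70% of all genes) and the same counts in RPF (15.4% and 10.6%), and a median log2 change of -0.04 in total RNA beside 0.03 over all genes. Prdm14, a naive-state regulator known to restrain the de novo enzymes, was at 37.2 to 42.9 CPM in ESC total RNA and had 24, 1 and 4 counts in the EpiLC libraries (log2 change -5.81 ± 0.61 SE, adjusted p = 9.04e-09). The change was -6.82 without EpiLC total RNA replicate 1, and -5.29 without replicate 2 of that group. Prdm14 passed the filter on low counts only through its ESC libraries. Zfp57, a zinc finger protein that keeps methylation at imprinted regions, fell 4.70-fold in total RNA (-2.23 ± 0.08, adjusted p = 7.72e-18), from between 274 and 279 CPM to between 57.8 and 60.1 CPM. No gene of the list was called for TE.

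The methyl-CpG readers, proteins that bind methylated DNA, gave 1 called higher and 1 called lower among 8 tested in total RNA (14.6% and 9.70% of all genes), with a median log2 change of -0.13. Zbtb33 (Kaiso) rose 2.14-fold (log2 change 1.09 ± 0.12 SE, adjusted p = 1.09e-08) and Zbtb38 fell 2.19-fold (-1.13 ± 0.10, adjusted p = 4.29e-10). The list also held both genes called for TE among the lists reported here (0.255% of all genes were called for TE). Mbd2, a reader that recruits the NuRD repressor complex, was at 18.3, 20.3 and 18.2 CPM in ESC total RNA and at 13.4, 15.7 and 14.1 CPM in EpiLC total RNA, and at 7.95, 7.23 and 8.72 CPM in ESC RPF and at 15.3, 25.5 and 15.6 CPM in EpiLC RPF. RPF and total RNA thus moved in opposite directions, without overlap of the cell types in either. The TE of Mbd2 rose 2.83-fold (log2 change 1.498 ± 0.25, adjusted p = 0.00210). Zbtb4 had 13, 8 and 8 counts in ESC RPF and 2, 0 and 0 in EpiLC RPF. A fitted TE change of -3.23 ± 0.75 (adjusted p = 0.0308) rests on these counts and on the offset added to them.

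Base excision repair, which finishes the removal of oxidized cytosine after TDG, had 1 of 10 tested genes called higher and 0 called lower in total RNA (14.6% and 9.70% of all genes), with a median log2 change of -0.37. Neil3, a DNA glycosylase, rose 3.05-fold (log2 change 1.61 ± 0.14 SE, adjusted p = 1.87e-10), from 13.8, 15.7 and 10.3 CPM to 38.6, 43.4 and 39.8 CPM. In RPF 1 was called higher and 2 lower (15.4% and 10.6% of all genes), the latter being the glycosylases Ung (-1.13 ± 0.09, adjusted p = 7.42e-11) and Smug1 (-1.004 ± 0.32, adjusted p = 0.00876), which were named after their values were seen. None of the 10 was called for TE by limma.

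**Figure D5:**
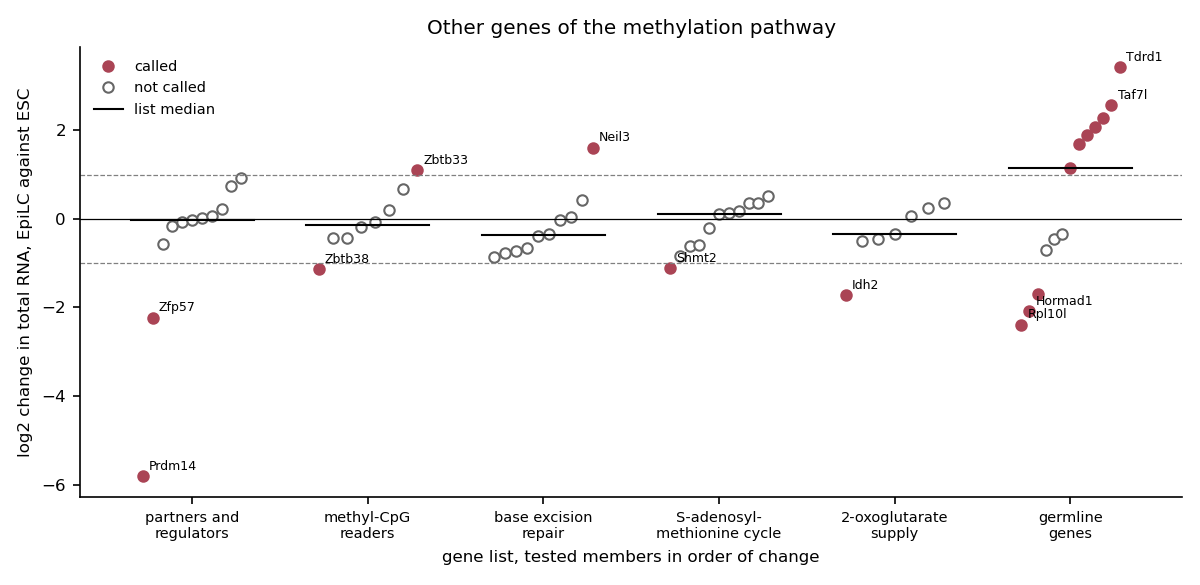
Log2 change in total RNA from ESC to EpiLC of every tested gene in 6 lists around the methylation cycle, with 1 point per gene, filled where called, and a line at the median of the list; the genes named by rule carry their symbols. Prdm14 lies lowest at -5.81 and the germline genes on the right spread from -2.39 to 3.42.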

How the data were processed

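Per the labels and the study's methods, the authors trimmed adapters with cutadapt 1.14 (RPF reads of 26 to 32 bases, total RNA reads of at least 32), kept uniquely mapped reads with STAR 2.5.3a on mm10 and Gencode M14, and counted 5′ ends on the sense strand of coding sequence without its first 45 bases with featureCounts 1.5.3. The deposited values are raw counts per gene. Treatment of PCR duplicates is not given in the sources used here, so detection limits cover counting error only (3 counts were 0.205 to 1.12 CPM).

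Here, genes with at least 3 CPM in at least 3 of 12 libraries were tested with TMM factors (edgeR 4.0.16), voom and limma 3.58.1 in R 4.3.3, in a model of 4 groups on all libraries, two-sided, with Benjamini-Hochberg adjustment over 11750 genes. Calls needed an adjusted p below 0.05 and an absolute log2 change above 1. The study's methods name limma and the CPM filter, its figure legend gives the call limits, and voom and TMM were chosen because the values are counts. CPM are TMM-scaled. Same-group libraries differed by more than sampling noise (chi-square per degree of freedom 2.51 to 7.75). Scripts were tested on simulated data.

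Alternatives were edgeR's quasi-likelihood test, DESeq2 1.42.0, limma-trend, other scalings, filters, a replicate block, GC correction and each library left out. Members and lists were chosen with earlier results of these data known. Named beside the 9 members are, per list, the 2 largest rises and falls in total RNA among called genes and any called for TE. Listed but untested were Cxxc4, Dnmt3c, Tex101, Asz1 and Brdt. An entry of the list of nearest profiles is not reported here.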

Additional observations from a re-analysis of the deposited data

Results flagged for a closer look

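In 3 genes of the surrounding lists, the change from ESC to EpiLC differed between RPF and total RNA by the interaction test (limma adjusted p below 0.05). At that limit 1.20% of all genes passed, and the lists held 11, 8, 10, 11, 7 and 13 tested genes. For Mbd2 the difference of the log2 changes was 1.498, with total RNA at -0.42 ± 0.14 (SE) and RPF at 1.08 ± 0.21, and its adjusted p stayed between 4.56e-06 and 0.00912 under every alternative run. For Zbtb4 it was -3.23, from 2 counts in EpiLC RPF against 29 in ESC RPF, a ratio of 0.129 per total count (exact 95% counting interval 0.0149 to 0.510), and the adjusted p ranged from 0.00343 to 0.152 over the alternatives (0.0623 in edgeR). For Mtrr, which reactivates methionine synthase, it was -0.59, under the fold limit (adjusted p 0.00860 to 0.110 over the alternatives, below 0.05 in 13 of 23), with total RNA at 83.3 ± 4.97 CPM in EpiLCs against 95.7 ± 2.13 in ESCs (SD, n = 3) and RPF at 39.2 ± 5.08 against 66.2 ± 3.85.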

How the results depend on the processing

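Of the counts of called members, none moved by more than 1.5 times under another test, scaling, filter, block or GC correction, although the GC correction changed which were called: Uhrf1 was gained in RPF (-1.02), and Tet3 in RPF (0.90) and Dnmt3l for the EpiLC TE level (0.97) were lost. Without the fold limit, 9 members passed in total RNA, 8 in RPF, 0 for TE, and 5 and 8 for the TE level in ESCs and EpiLCs, against 4, 4, 0, 2 and 3. Of all genes, 65.4%, 59.8%, 1.20%, 67.5% and 64.3% passed in the same order. With each library left out, the counts were 4 to 4, 3 to 5, 0 to 0, 2 to 2 and 2 to 4. With the replicate number as a block, they stayed 4, 4, 0, 2 and 3, and the TE change of Dnmt3b (0.59) had an adjusted p of 0.0424, below the threshold but under the fold limit. Same-numbered libraries of the cell types did not deviate together (correlations of -0.013 to 0.040), so the numbers were not taken to pair them. The study describes its total RNA as matched to the RPF. Correlations between same-numbered RPF and total RNA libraries were -0.182 to 0.163. A fit with libraries of the same cell type and number as a block gave a correlation of 0.0706 within blocks.

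Values near 0 changed sign. The ESC TE level of Dnmt1 (-0.01) was 0.0206 with DESeq2 and 0.0272 with DESeq2 size factors. With a library left out, it ranged from -0.0512 to 0.0215, the ESC TE level of Dnmt3b from -0.384 to 0.0601, and the TE change of Tet1 from -0.12 to 0.0545, of Tet2 from -0.58 to 0.0468 and of Tdg from -0.10 to 0.49. The TE call of Zbtb4 was lost in edgeR, limma-trend and 7 of 12 fits with a library left out (ESC RPF replicates 1 and 2, ESC total RNA replicate 3, EpiLC RPF replicates 2 and 3, EpiLC total RNA replicates 1 and 2), with DESeq2 giving no adjusted p. RPF depth limits Tet2, Tet3 and Tdg most.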

Other observations

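Germline genes whose promoters are silenced by DNA methylation in somatic cells moved in both directions. Of 13 tested genes of this list, chosen with earlier results of these data known, 7 were called higher and 3 lower in total RNA (14.6% and 9.70% of all genes), with a median log2 change of 1.15. Tdrd1, Taf7l and Slc25a31 passed the filter of 3 CPM only through EpiLC libraries, so they could enter the test only by being higher there. The counts and the median include them. Tdrd1, a germ granule protein of the piRNA pathway, was at 1.17, 2.78 and 2.31 CPM in ESC total RNA and at 19.9, 19.9 and 23.0 CPM in EpiLC total RNA (log2 change 3.42 ± 0.32 SE, limma adjusted p = 7.93e-10). Taf7l, a germ cell variant of a TFIID subunit, rose 5.90-fold (2.56 ± 0.35, adjusted p = 6.84e-07). Rpl10l, a testis ribosomal protein, fell 5.24-fold (-2.39 ± 0.19, adjusted p = 6.28e-11) and Hormad1, a protein of meiotic chromosomes, fell 4.22-fold (-2.08 ± 0.23, adjusted p = 1.89e-08). Rpl10l resembles Rpl10, so its counts are uncertain. Methylation was not measured in these libraries.

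The enzymes' cosubstrates were covered by a pair of lists. In the S-adenosylmethionine cycle, which makes the methyl donor, 0 of 11 tested genes were called higher and 1 lower in total RNA (14.6% and 9.70% of all genes), with a median log2 change of 0.10. That gene was Shmt2, the mitochondrial serine hydroxymethyltransferase, which fell 2.18-fold (-1.12 ± 0.06, adjusted p = 3.11e-14). Of 7 tested genes around 2-oxoglutarate, the cosubstrate of the TETs, 0 were called higher and 1 lower (the same shares of all genes apply), with a median of -0.35. Idh2, the mitochondrial isocitrate dehydrogenase, fell 3.31-fold (-1.73 ± 0.07, adjusted p = 1.02e-16), from 414 to 443 CPM in ESC total RNA to 112 to 141 CPM in EpiLC total RNA, a range without overlap.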
